A study of Mus musculus with 25 samples.

Results

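The Period genes *Per1*, *Per2*, and *Per3* and the cryptochrome genes *Cry1* and *Cry2* were followed in the ribosome-bound mRNA of spinal cord cholinergic neurons that lacked *Bmal1*. These 5 genes were taken by name out of the 50559 listed in the count table, and all 5 were among the 21738 genes with at least 10 counts over the immunoprecipitate libraries. The knockout group, *ChAT-BKO*, carried *ChAT-Cre*, *RiboTag* fx/+, and *Bmal1* fx/fx, and the control group carried *ChAT-Cre* and *RiboTag* fx/+ alone. Mice of both genotypes were males of 6 mo of age. Each genotype was collected at Zeitgeber Time (ZT) 8, in the light, and at ZT20, in the dark, with 6 mice in each of the 4 groups. All mice therefore carried the Cre driver and the RiboTag allele, and the groups differed by the floxed *Bmal1* alleles and by time. RiboTag puts a hemagglutinin (HA) tag on a ribosomal protein in cells with Cre, here those that express choline acetyltransferase, so that the mRNA on their ribosomes can be enriched from spinal cord by immunoprecipitation (IP) of HA. A single input library held pooled spinal cord RNA from before the IP.

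In the molecular clock, the transcription factors BMAL1 and CLOCK bind E-box sequences and activate the Period and cryptochrome genes. The PER and CRY proteins then enter the nucleus and inhibit BMAL1:CLOCK, which closes a feedback loop with a period of about a day. A second loop joins the REV-ERB repressors (*Nr1d1*, *Nr1d2*) and the ROR activators at ROR elements, as in the *Bmal1* and *Cry1* genes, and a further set of factors (DBP, TEF, HLF, and the repressor NFIL3) acts at D-boxes. Period genes also respond to signals from outside the cell, among them glucocorticoids and cAMP. The comparisons asked which of the repressor transcripts rise, fall, or hold without *Bmal1*, and which differ between day and night.

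The 4 promoters with a match to a clock motif are shown, because factors of the loops above are known to bind such motifs. Each is the 250 bases before a RefSeq transcript start of the GRCm38.p6 assembly, read 5′ to 3′ on the strand of the gene. Capitals mark matches on either strand to E-box CACGTG, E′-box CACGTT, D-box TTANGTAA, and TNGGTCA, a loose pattern searched for ROR elements. The windows lie at chr10:85185055-85185304 (minus strand) for *Cry1*, chr2:92434070-92434319 (minus strand) for *Cry2*, chr11:69098699-69098948 (plus strand) for the first of the *Per1* starts, and chr4:151044666-151044915 (minus strand) for *Per3*.
Cry1: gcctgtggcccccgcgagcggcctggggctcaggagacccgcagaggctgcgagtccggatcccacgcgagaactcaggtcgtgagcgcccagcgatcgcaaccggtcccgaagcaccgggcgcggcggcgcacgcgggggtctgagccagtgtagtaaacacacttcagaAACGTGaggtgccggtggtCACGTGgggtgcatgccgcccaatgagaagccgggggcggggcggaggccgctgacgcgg
Cry2: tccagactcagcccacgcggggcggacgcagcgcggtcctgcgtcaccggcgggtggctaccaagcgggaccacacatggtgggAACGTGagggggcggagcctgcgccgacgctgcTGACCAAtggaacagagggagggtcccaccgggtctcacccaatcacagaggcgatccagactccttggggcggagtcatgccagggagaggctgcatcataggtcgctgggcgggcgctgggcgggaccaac
Per1 first start: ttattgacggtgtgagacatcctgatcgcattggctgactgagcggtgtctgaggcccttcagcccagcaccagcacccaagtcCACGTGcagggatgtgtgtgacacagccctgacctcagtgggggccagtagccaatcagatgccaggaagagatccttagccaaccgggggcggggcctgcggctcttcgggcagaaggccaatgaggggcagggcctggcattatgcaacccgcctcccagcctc
Per3: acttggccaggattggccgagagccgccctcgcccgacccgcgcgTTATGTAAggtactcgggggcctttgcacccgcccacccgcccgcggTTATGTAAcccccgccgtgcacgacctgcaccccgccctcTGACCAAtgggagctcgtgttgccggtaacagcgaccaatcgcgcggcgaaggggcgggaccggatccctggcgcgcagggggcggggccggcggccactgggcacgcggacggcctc

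*Cry1* held an E′-box and an E-box, at bases -79 to -74 and -60 to -55 from the start. *Cry2* held an E′-box at -166 to -161 and a match to the pattern TNGGTCA at -133 to -127. In *Per1*, the first start had an E-box at -166 to -161, and the window of the second start (chr11:69099902-69100151) had no match to any motif searched. *Per3* differed from the others by D-boxes, at -205 to -198 and at -158 to -151, and also had a match to TNGGTCA at -118 to -112. The *Cry2* and *Per3* matches to TNGGTCA both read TGACCAA, that is TTGGTCA on the other strand. The pattern took any base at N, so that these matches are not called ROR elements here. Of the 32851 RefSeq promoter windows of the same length, 6.02% held an E-box, 3.85% an E′-box, and 2.06% a D-box. A match to TNGGTCA was in 9.19%, and 0.0731% held a D-box at 2 or more places. The cAMP response element TGACGTCA, in 1.55% of windows, was in none of those of these genes. None of the matches overlapped another. *Per2* had no entry among these promoters. A match is a description of the letters in the window and not a site shown to be bound.

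**Figure D1:**
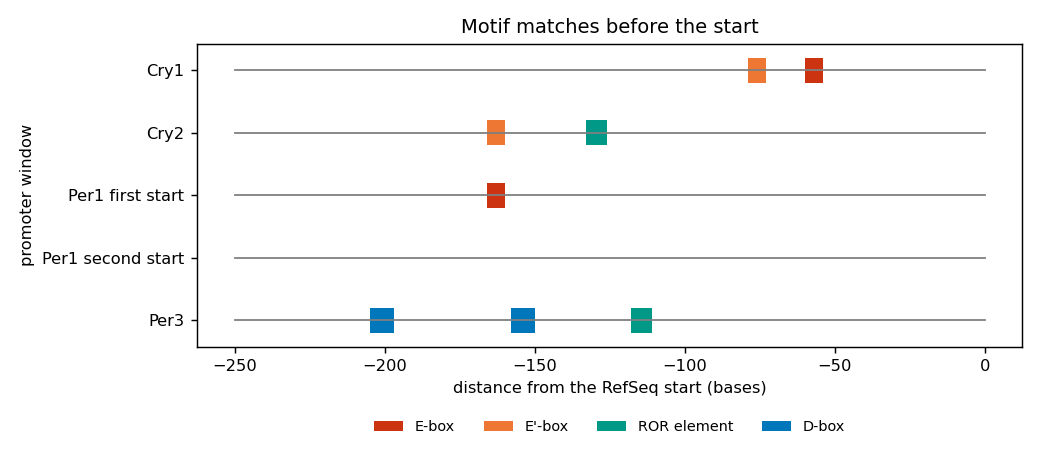
Motif matches in the 250 bases before each RefSeq start of *Cry1*, *Cry2*, *Per1*, and *Per3*. The x axis is the distance from the start in bases, each grey line is a window, and colored blocks are matches. The label ROR element stands for any match to TNGGTCA. E-boxes or E′-boxes are in the *Cry1*, *Cry2*, and first *Per1* windows, and D-boxes are in the *Per3* window.

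Depth and purity bear on the values that follow. The IP libraries held 4.04 to 31.7 M counts, and the input held 7.4 M. Levels are in CPM, counts scaled to library size. With 0 counts, a level of up to 0.0948 CPM (deepest IP library) or 0.734 CPM (shallowest) could not have been detected, taking 3 counts as the limit and for counting error only. All 60 pairs of libraries within a group differed by more than counting error. The 7 cholinergic markers (*Chat*, *Slc18a3*, *Slc5a7*, *Isl1*, *Mnx1*, *Prph*, *Ache*) were all above the input in controls, with a median log2 ratio of 2.36. Markers of oligodendrocytes, astrocytes, microglia, and endothelial cells were below it, with medians between -4.50 and -3.66, and none of those 24 genes was called by edgeR in either genotype comparison. The 5 markers of other neurons were the least depleted, with a median of -1.87 and *Gad1*, of inhibitory neurons, at -0.40. They summed to 345 to 392 CPM in controls and 361 to 448 CPM in *ChAT-BKO* libraries at ZT8, and to 387 to 479 and 342 to 461 CPM at ZT20, with none called by edgeR between genotypes. The oligodendrocyte markers summed to 1660 to 1940 CPM in controls and 1680 to 2290 CPM in *ChAT-BKO* libraries at ZT8, and to 1660 to 2180 and 1720 to 2490 CPM at ZT20. The 6 skeletal muscle markers also lay below the input, but 3 of them (*Acta1*, *Tnnt3*, *Mylpf*) were called higher in *ChAT-BKO* libraries at ZT20 by edgeR, where DESeq2 called 2 (*Actn3*, *Mylpf*) and limma voom 0. Their sum ran from 7.92 to 24.6 CPM in controls and from 5.15 to 83.8 CPM in *ChAT-BKO* libraries at that time. At ZT8 it ran wider, from 4.13 to 89 CPM in controls and from 5.23 to 136 CPM in *ChAT-BKO* libraries. The part of this sum in the values of the repressors was not tested. In such pooled tissue, a change in RNA per cell cannot be told apart from a change in the number of cells of a type.

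*Arntl* (*Bmal1*), the targeted gene, was examined first. It was at 8.44 ± 1.43 CPM (SD, n = 6) in controls and 2.64 ± 0.538 CPM in *ChAT-BKO* libraries at ZT8, and at 8.73 ± 1.18 and 1.92 ± 0.515 CPM at ZT20. The genotypes did not overlap at either time, with *Arntl* lower in 6 of 6 *ChAT-BKO* libraries, and the log2 fold changes were -1.64 (adjusted p = 1.56e-05) and -2.08 (adjusted p = 1.98e-07, edgeR quasi-likelihood test with Benjamini-Hochberg adjustment). Counts are per gene, so that transcripts without the floxed exon still count toward *Arntl*. Any *Arntl* RNA of cells without Cre that came through the IP counts as well. Against the input, *Arntl* of *ChAT-BKO* libraries had log2 ratios of -2.05 at ZT8 and -2.51 at ZT20. The part of each source in the remaining counts was not tested.

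Without *Bmal1*, *Cry1*, *Cry2*, and *Per2* rose at both times, and *Per1* and *Per3* were not called at either. *Cry1* rose over 4-fold, *Per2* 2.45-fold at ZT8 and 3.38-fold at ZT20, and *Cry2*, the most abundant of the family, by about 1.3-fold. None of the repressors fell. At each time point 3 of the 5 genes were called at an adjusted p under 0.05, against 0.184% of the 21738 genes tested at ZT8 (0.129% higher, 0.0552% lower) and 0.23% at ZT20 (0.189% higher, 0.0414% lower). The median log2 fold change of the 5 genes was 0.32 at ZT8 and 0.39 at ZT20, and that of all genes was 0.00 and -0.01.

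*Cry1* encodes the cryptochrome that is the stronger inhibitor of BMAL1:CLOCK. The gene (ENSMUSG00000020038.10) lies at chr10:85131700-85185064 on the minus strand of GRCm38. At ZT8, controls ranged from 3.1 to 4.35 CPM (median 3.94) and *ChAT-BKO* libraries from 15.2 to 17.8 CPM (median 16). The lowest *ChAT-BKO* library was thus well above the highest control. *Cry1* rose by a log2 fold change of 2.09 (SE 0.1, 95% confidence interval 1.87 to 2.31), or 4.25-fold, with an adjusted p of 1.43e-09 (edgeR), the smallest p of all genes at that time.

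At ZT20, *Cry1* ranged from 3.48 to 4.33 CPM (median 4.06) in controls and from 14.4 to 20.1 CPM (median 17.7) in *ChAT-BKO* libraries. Again the groups did not overlap. The log2 fold change was 2.15 (SE 0.11, 95% confidence interval 1.93 to 2.37), or 4.44-fold, with an adjusted p of 1.42e-10 (edgeR).

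*Cry2* encodes the second cryptochrome, whose loss lengthens the daily period where loss of *Cry1* shortens it. It lies at chr2:92403646-92434043 on the minus strand (ENSMUSG00000068742.11). At ZT8, controls ranged from 116 to 124 CPM (median 118) and *ChAT-BKO* libraries from 144 to 150 CPM (median 149). At ZT20, the ranges were 115 to 127 CPM (median 122) and 144 to 170 CPM (median 159). Every *ChAT-BKO* library was above every control at both times, although the rise was small. The log2 fold change was 0.32 at ZT8 (SE 0.05, 95% confidence interval 0.23 to 0.42, adjusted p = 0.00179) and 0.39 at ZT20 (SE 0.05, 95% confidence interval 0.28 to 0.49, adjusted p = 0.000461, edgeR). The spread of *Cry2* between libraries was the lowest of the 5 genes in each group, with coefficients of variation from 1.62% to 5.76%. *D930015M05Rik*, annotated on the opposite strand, shares 295 exonic bases with *Cry2* and had 10 counts in all IP libraries together.

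*Per2* encodes the Period protein whose loss disrupts behavioral rhythms most among the single Period mutants. It lies at chr1:91415982-91459324 on the minus strand (ENSMUSG00000055866.9). In ZT8 libraries, *Per2* ranged from 2.49 to 5.37 CPM (median 3.97) in controls and from 7.17 to 10.9 CPM (median 9.72) in *ChAT-BKO* libraries. At ZT20, it ranged from 3.42 to 5.07 CPM (median 4.01) and from 10.6 to 18.8 CPM (median 13.7). The groups were apart at both times, and the *ChAT-BKO* libraries at ZT20 were the most spread (SD 3.19 CPM, against 0.651 CPM in their controls). *Per2* rose by a log2 fold change of 1.3 at ZT8 (SE 0.16, 95% confidence interval 0.95 to 1.64, adjusted p = 0.000409) and 1.76 at ZT20 (SE 0.15, 95% confidence interval 1.45 to 2.07, adjusted p = 6.09e-07, edgeR).

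*Per1* encodes a Period protein whose transcript is induced quickly by light in the central clock and by glucocorticoids in many tissues. It lies at chr11:69095217-69109960 on the plus strand (ENSMUSG00000020893.17). At ZT8, controls ranged from 25.7 to 34 CPM (median 28.1) and *ChAT-BKO* libraries from 22 to 31.6 CPM (median 27), and at ZT20 the ranges were 26.6 to 32.9 CPM (median 28.1) and 27.2 to 36.9 CPM (median 29.5). The groups overlapped at both times. The log2 fold change was -0.10 at ZT8 (95% confidence interval -0.29 to 0.10, adjusted p = 1) and 0.09 at ZT20 (95% confidence interval -0.08 to 0.26, adjusted p = 0.896, edgeR). These intervals bound any change to between 0.819-fold and 1.07-fold at ZT8 and between 0.946-fold and 1.2-fold at ZT20.

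*Per3* encodes the Period protein least needed for behavioral rhythms in mice. It lies at chr4:151003652-151044665 on the minus strand (ENSMUSG00000028957.12). Its levels ranged from 5.37 to 8.2 CPM (median 7.07) in controls and from 6.56 to 8.56 CPM (median 7.62) in *ChAT-BKO* libraries at ZT8. At ZT20, they ranged from 5.06 to 6.68 CPM (median 6.16) and from 5.59 to 7.97 CPM (median 6.76). Groups overlapped at both times, though 3 of 6 *ChAT-BKO* libraries at ZT20 were above all controls. The log2 fold change was 0.08 at ZT8 (95% confidence interval -0.17 to 0.33, adjusted p = 1) and 0.19 at ZT20 (95% confidence interval -0.05 to 0.44, adjusted p = 0.838, edgeR).

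**Figure D2:**
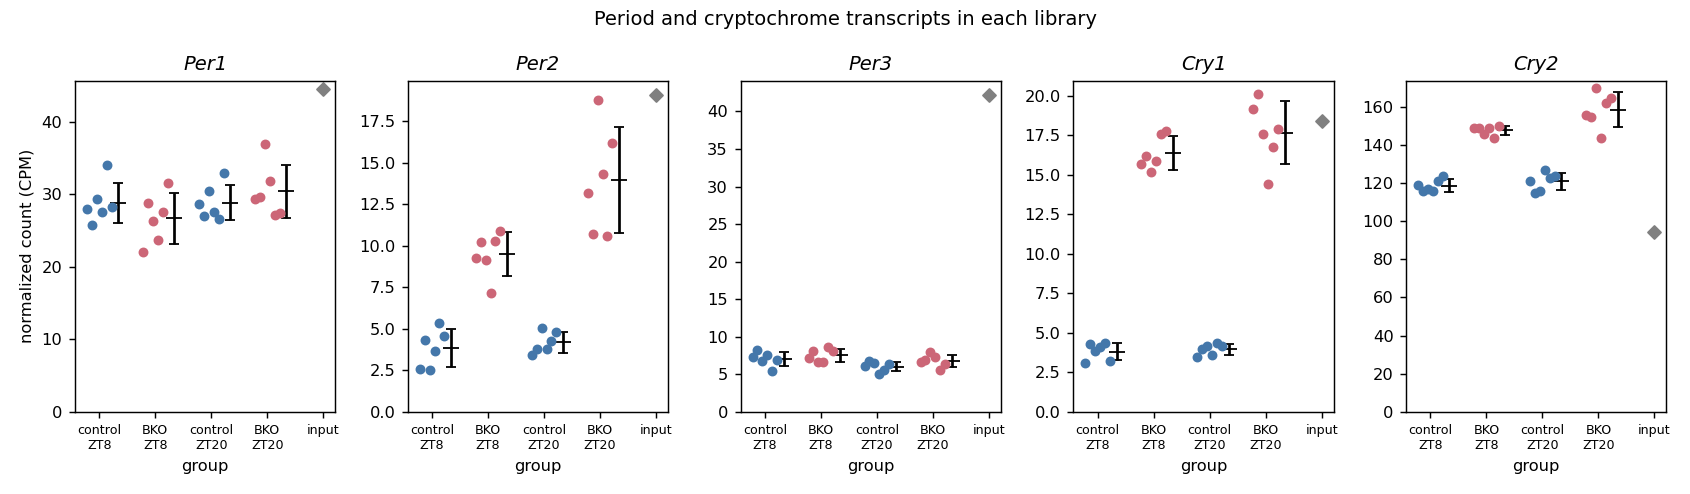
Normalized counts (CPM) of the 5 genes in every library, with 6 libraries in each IP group and 1 pooled input. Points are libraries, bars are the mean ± SD, diamonds are the input, and BKO stands for *ChAT-BKO*. *Cry1* was between 3.1 and 4.35 CPM in controls and between 14.4 and 20.1 CPM in *ChAT-BKO* libraries, whereas the *Per1* and *Per3* groups overlap.

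**Figure D3:**
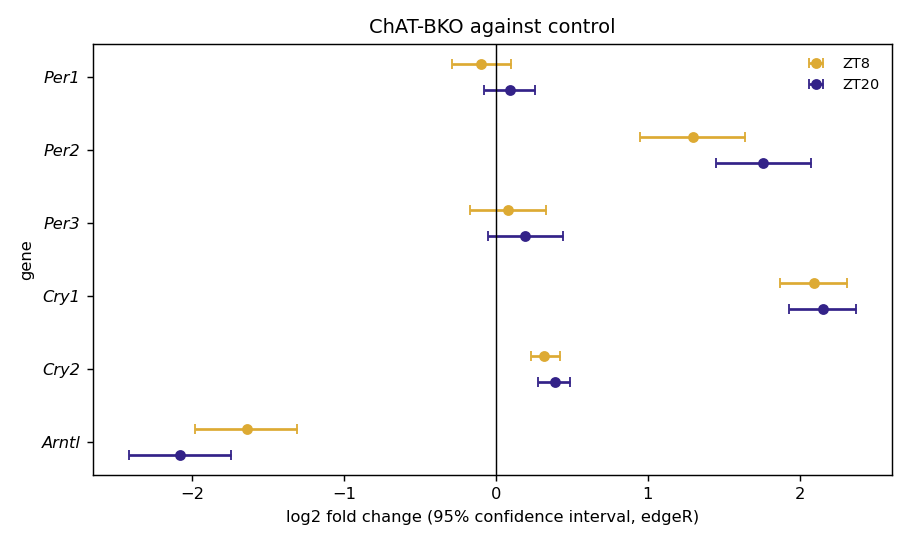
Log2 fold change of *ChAT-BKO* against control for the 5 genes and *Arntl* at each time (6 libraries against 6). Points are edgeR estimates and bars are 95% confidence intervals. The intervals of *Per2*, *Cry1*, and *Cry2* lie above 0 at both times, those of *Per1* and *Per3* include 0, and those of *Arntl* lie below 0.

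Day and night were then compared within each genotype. No repressor was called in controls, in which 0.115% of all genes were (0.0966% higher at night, 0.0184% lower). In *ChAT-BKO* neurons none was called by edgeR, where 0.285% of all genes were (0.23% higher at night, 0.0552% lower), and *Per2* was the closest, at 14 ± 3.19 CPM at ZT20 against 9.5 ± 1.32 CPM at ZT8 (SD, n = 6). The comparisons within a genotype use the same libraries as the comparisons between genotypes. With 2 times only, a rhythm whose rising and falling sides cross at these times would leave no difference.

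In controls, *Per1* was at 28.8 ± 2.8 CPM at ZT8 and 28.8 ± 2.42 CPM at ZT20, a log2 fold change of 0.01 (95% confidence interval -0.15 to 0.17). *Cry2* differed by 0.03 (95% confidence interval -0.07 to 0.13), *Cry1* by 0.05 (-0.23 to 0.33), and *Per2* by 0.11 (-0.26 to 0.48). For *Per1* and *Cry2*, the intervals leave out any day-night change over 1.13-fold. The control difference farthest from 0 was that of *Per3*, which was lower at night by a log2 fold change of -0.24 (95% confidence interval -0.49 to 0.00, unadjusted p = 0.0483, adjusted p = 0.603 from edgeR). *Per3* was the 1 repressor with an unadjusted p under 0.05 in controls, as had 8.25% of all genes, and DESeq2 and limma voom called 0 of the 5.

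In *ChAT-BKO* neurons, *Per2* ranged from 7.17 to 10.9 CPM at ZT8 and from 10.6 to 18.8 CPM at ZT20. At ZT20, 4 of the 6 libraries were above all of those at ZT8, and the groups overlapped in the others. The log2 fold change was 0.58 (SE 0.14, 95% confidence interval 0.29 to 0.88), or 1.5-fold, with an adjusted p of 0.0933 (edgeR), whereas DESeq2 gave 0.57 and an adjusted p of 0.0174. The highest *Per2* library, *ChAT-BKO* replicate 3 at ZT20, was also the library with the steepest length slope, which is the rise of log2 CPM with log2 transcript length across genes (0.321, against 0.079 to 0.248 in the other *ChAT-BKO* libraries). With that slope as a covariate *Per2* differed by 0.52 (adjusted p = 0.0109, edgeR), and without that library by 0.46 (adjusted p = 0.224, edgeR).

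The other repressors of *ChAT-BKO* neurons had night-against-day log2 fold changes of 0.20 for *Per1* (95% confidence interval 0.01 to 0.40, unadjusted p = 0.0438, adjusted p = 0.513), 0.12 for *Cry1* (-0.06 to 0.30), 0.10 for *Cry2* (-0.01 to 0.20), and -0.12 for *Per3* (-0.37 to 0.13), all from edgeR. *Per1* and *Per2* were the 2 of 5 with an unadjusted p under 0.05, as had 9.42% of all genes, and of the 5 DESeq2 called *Per2* and limma voom called 0. Whether the day-night difference itself depended on the genotype was tested with an interaction term over all 24 libraries. It was 0.47 for *Per2* (SE 0.23, 95% confidence interval 0.01 to 0.94, unadjusted p = 0.0467, adjusted p = 1) and between 0.07 and 0.20 for the other 4, with adjusted p = 1 for each (edgeR). By edgeR, 0 of the 21738 genes were called for this term, a background of 0%, with 3.9% at an unadjusted p under 0.05, and for the 5 repressors DESeq2 and limma voom also called 0. The same term tests whether the rise without *Bmal1* was larger at ZT20 than at ZT8, so that a larger rise of *Per2* at night was not established.

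**Figure D4:**
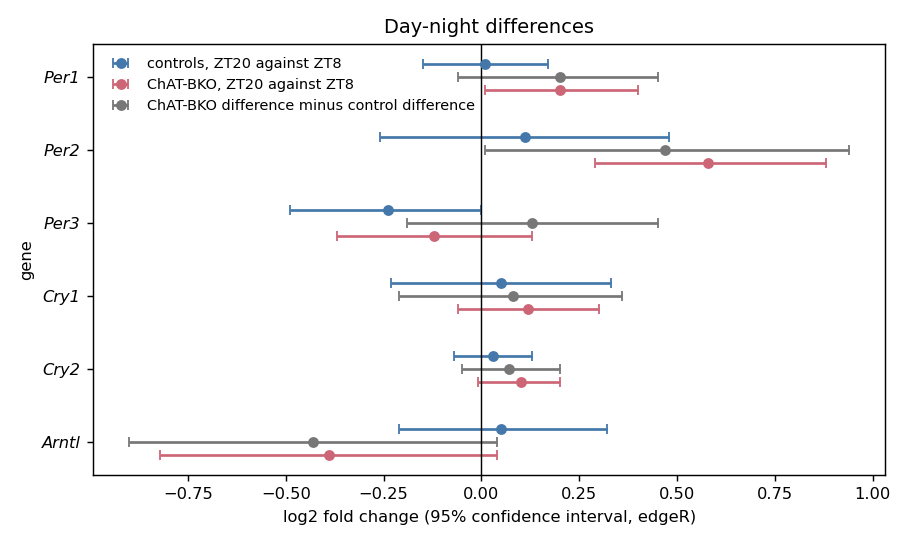
Log2 fold change of ZT20 against ZT8 for each genotype, and the difference of both (interaction term), for the 5 genes and *Arntl*. Points are edgeR estimates and bars are 95% confidence intervals. *Per2* in *ChAT-BKO* neurons (0.58) is the farthest from 0 among the repressors, and its adjusted p was 0.0933.

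Levels were compared between the genes per kilobase (kb) of the longest annotated transcript, which ranged from 3026 bases for *Cry1* to 5999 for *Per3*. In controls at ZT8, *Cry2* was at 29.9 ± 0.81 CPM per kb (SD, n = 6), *Per1* at 6.16 ± 0.599, *Cry1* at 1.26 ± 0.178, *Per3* at 1.17 ± 0.159, and *Per2* at 0.655 ± 0.195. *Cry2* was above *Per1*, and *Per1* above *Cry1*, in all 6 libraries with no overlap of their values. *Cry1* and *Per3* were not apart at ZT8, since *Cry1* was the higher in 4 of 6, but *Cry1* was above *Per3* in 6 of 6 without overlap at ZT20, and also at ZT8 when levels were taken per kb of all exons joined (ratio 1.57). *Per3* and *Per2* overlapped in controls at both times. In *ChAT-BKO* neurons at ZT8, *Cry1* reached 5.41 ± 0.36 CPM per kb and *Per1* was at 5.71 ± 0.749, so that these neighbors were no longer apart, with *Per1* the higher in 4 of 6 libraries. *Per2* (1.63 ± 0.226) was then above *Per3* (1.25 ± 0.144) in 6 of 6. At ZT20, *Per1* (6.5 ± 0.773) and *Cry1* (5.83 ± 0.657) again overlapped, and *Per2* (2.39 ± 0.548) was above *Per3* (1.13 ± 0.136) without overlap.

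Summed over the 5 genes, the repressor pool was 39.1 ± 1.18 CPM per kb in controls and 51.2 ± 1.45 in *ChAT-BKO* neurons at ZT8 (SD, n = 6). At ZT20 it was 39.6 ± 1.27 and 55.8 ± 3.18. *Cry2* made up most of it in every group, 76.4% ± 1.19 in controls and 72.7% ± 1.92 in *ChAT-BKO* neurons at ZT8, and 76.8% ± 1.55 and 71.6% ± 1.59 at ZT20. The share of *Cry1* was 3.22% ± 0.467 in controls and 10.6% ± 0.513 in *ChAT-BKO* neurons at ZT8, and that of *Per1* was 15.7% ± 1.15 and 11.1% ± 1.19. Shares of raw counts within each family do not depend on scaling between libraries. Of the cryptochrome counts, *Cry1* took 2.53% to 3.59% in controls and 9.41% to 10.9% in *ChAT-BKO* libraries at ZT8, and 2.74% to 3.43% and 9.09% to 11.4% at ZT20. *Per2* took 6.46% to 12% of the Period counts in controls and 19.2% to 24.2% in *ChAT-BKO* libraries at ZT8, and 9% to 12.1% and 22.7% to 32.4% at ZT20. Neither share overlapped between genotypes at either time.

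**Figure D5:**
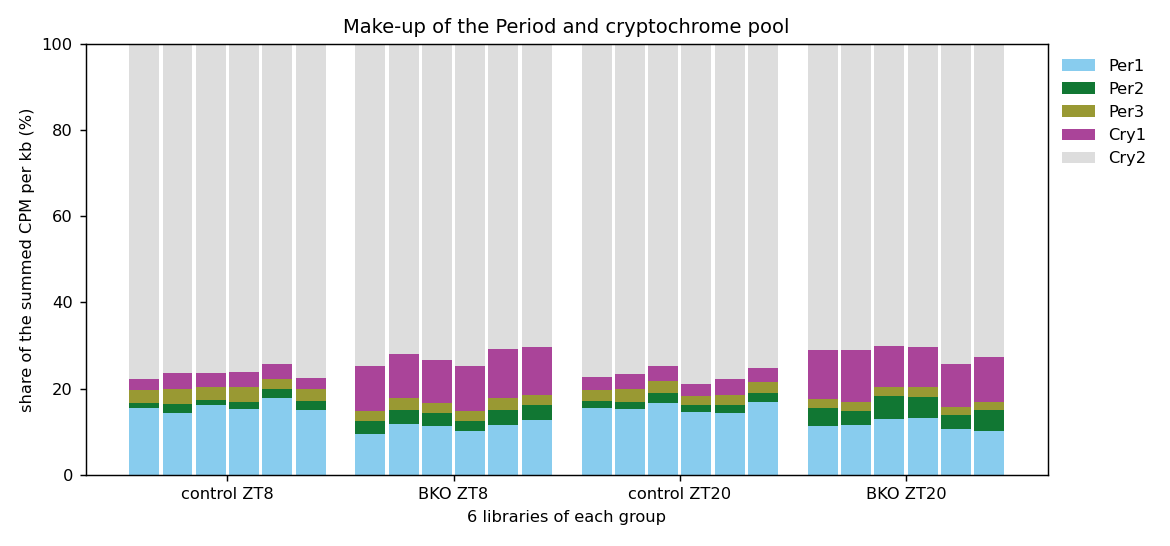
Share of each gene in the summed CPM per kb of the 5 genes, in percent, with 1 bar per library and 6 libraries per group (BKO, *ChAT-BKO*). *Cry2* takes over 70% in every bar, and the share of *Cry1* is from 2.65% to 3.73% in controls and from 9.25% to 12% in *ChAT-BKO* libraries.

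The input gives the level of the same transcripts in whole spinal cord RNA. It held 94.4 CPM of *Cry2* (95% exact Poisson interval 87.5 to 102, for counting error only), 44.5 of *Per1* (39.8 to 49.6), 42.2 of *Per3* (37.6 to 47.1), 19.1 of *Per2* (16 to 22.5), and 18.4 of *Cry1* (15.4 to 21.7). The title of the input names no genotype or time, and with a single input there is no test. Both genotypes are set against this same library, so that a ratio differs between them only by the IP values. *Cry2* was the repressor above the input in control neurons, with a log2 ratio of IP to input of 0.35, and *Per1* was at -0.63. *Per2* and *Cry1* both had a log2 ratio of -2.25 in controls and *Per3* of -2.70. These lay below the control median of the 5 markers of other neurons, -1.87. How much RNA of other cells adds to these levels was not tested. In *ChAT-BKO* neurons, the ratio was -0.11 for *Cry1* and -0.70 for *Per2*, while *Per3* stayed at -2.56. With TMM scaling over all 25 libraries each ratio was about 0.45 higher, which put *Cry1* of *ChAT-BKO* neurons above the input, at 0.34.

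Other clock genes were measured in the same fits. Of the 4 clock activators, *Arntl* was called at both times, and *Arntl2*, *Clock*, and *Npas2* were not. *Npas2*, a CLOCK paralog, had log2 fold changes of 0.61 (ZT8, adjusted p = 1) and 0.82 (ZT20, adjusted p = 0.166, edgeR). Of the 8 genes of the second loop and other repressors, 3 fell at ZT8 and 2 fell at ZT20. *Nr1d2*, a REV-ERB gene, fell by 1.11 on the log2 scale at ZT8 (adjusted p = 4.95e-09) and by 1.35 at ZT20 (adjusted p = 9.3e-09, edgeR). *Ciart*, a repressor of BMAL1:CLOCK, fell by 1.21 and 1.25 (adjusted p = 0.000611 and 2.39e-06, edgeR). *Nr1d1* fell by 0.72 at ZT8 (adjusted p = 4.92e-05) and had -0.50 at ZT20 (adjusted p = 0.14, edgeR), where DESeq2 called it lower. Thus *Nr1d2*, *Ciart*, and *Arntl* fell at both times while *Cry1*, *Cry2*, and *Per2* rose.

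Among the 4 D-box factors, *Nfil3*, the repressor, rose by 0.95 (ZT8, adjusted p = 9.45e-05) and 0.96 (ZT20, adjusted p = 2.7e-05, edgeR). *Hlf*, an activator, rose by 0.52 in ZT8 libraries (adjusted p = 0.0211, called in 13 of 20 alternatives) and had 0.44 at ZT20 (adjusted p = 0.127, edgeR). *Tef* was not called in either comparison of genotypes, nor was *Dbp*, which had -0.38 at ZT8 and -0.25 at ZT20. *Dbp* did differ between day and night, lower at ZT20 by -0.86 in controls (adjusted p = 0.0074) and by -0.72 in *ChAT-BKO* neurons (adjusted p = 0.00249, edgeR). Its difference of these differences was not called (adjusted p = 1).

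The 13 genes for PER and CRY kinases and protein turnover (among them *Csnk1d* and *Csnk1e*, casein kinases that phosphorylate PER) gave 0 calls by edgeR in all 5 comparisons, and 0 by DESeq2 and by limma voom. At an unadjusted p under 0.05, edgeR gave 0 of the 13 at ZT8, where 4.83% of all genes had one, and 2 at ZT20, *Prkaa1* (-0.21) and *Usp2* (-0.26), where 6.28% did. The median log2 fold change of the 13 was 0.01 at ZT8 and -0.06 at ZT20, beside 0.00 and -0.01 for all genes. Of the 6 partners of PER and CRY complexes, 0 were called between genotypes by edgeR, DESeq2, or limma voom, with 0 at an unadjusted p under 0.05. *Sfpq*, a splicing factor bound to PER complexes, was higher at ZT20 in controls (0.33, adjusted p = 0.0127, edgeR). In *ChAT-BKO* neurons edgeR did not call *Sfpq*, which was at 0.21 to 0.27 over 20 alternatives and called in 4. Its interaction term was called in none of the alternatives.

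Genes induced by glucocorticoids or activity were set beside *Per1* and *Per2*, since they answer to the same signals. Of these 10, none was called between genotypes by edgeR, with 1 at an unadjusted p under 0.05 at ZT8 and 2 at ZT20 (4.83% and 6.28% of all genes), and DESeq2 called 1, *Fos*, at ZT20. *Fkbp5*, a glucocorticoid target, had a log2 fold change of -0.09 at ZT8 and -0.06 at ZT20. *Fos*, an immediate early gene, was at 0.53 at ZT20 (adjusted p = 0.0582, edgeR) and was higher at night in *ChAT-BKO* neurons by 0.93 (adjusted p = 0.0267, edgeR). In controls the night value of *Fos* was 0.34 to 0.51 over 20 alternatives, called in 2. Its interaction term was called in 0 of 31 alternatives. Of the 6 heat shock genes, 0 were called between genotypes by edgeR, with 1 at an unadjusted p under 0.05 at ZT8 and 3 at ZT20 (against the same 4.83% and 6.28%), and DESeq2 called *Hspa1b* at ZT20. At ZT20 against ZT8 in *ChAT-BKO* neurons, edgeR called 3 of these 6 higher, where 0.23% of all genes were called higher. They were *Hspa1a* (0.63), *Hspa1b* (1.63), and *Dnajb1* (0.48), with adjusted p = 0.00442, 9.25e-06, and 0.00225 (edgeR). In controls 0 of the 6 were called by edgeR, but all 6 were higher at night. Of these, 4 had an unadjusted p under 0.05, as had 8.25% of all genes. The interaction term was called for 0 of the 6, with 3 at an unadjusted p under 0.05 (3.9% of all genes). *Per2* had its own night value of 0.58 in *ChAT-BKO* neurons, and the part of the heat shock genes in it was not tested.

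Likeness to other genes was described by the root mean square difference of log2 CPM, standardized over the 24 IP libraries, among 13716 other genes with a mean of at least 1 CPM. The median difference was 1.4 to 1.43 SD for the 5 repressors. The gene nearest to *Cry1* was *Lamp5* (0.286 SD), which was also nearest to *Per2* (0.421 SD) and second nearest to *Cry2* (0.383 SD). *Lamp5* had means of 137 (ZT8) and 134 CPM (ZT20) in controls, and of 208 and 209 CPM without *Bmal1*. *Nfil3* was next for *Per2* (0.431 SD). *Cry1* had *Rps13-ps2* (0.37 SD), a pseudogene whose reads can be shared with its parent gene and other copies, next. Nearest to *Cry2* was *Scd3* (0.382 SD), followed after *Lamp5* by *Nfil3* (0.416 SD). *Per1* and *Per3* had no gene as near, with *Mboat7* (0.617 SD), *Il6st*, and *Megf9* for *Per1* and *Foxj3* (0.829 SD) and *Mpped1* for *Per3*.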

How the data were processed

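mRNA from HA IPs of spinal cord was sequenced as 24 IP libraries and 1 pooled input. Per the labels and the methods of the study, the authors aligned reads to mm10 with STAR 2.7.5, and RSEM gave expected counts for each gene, deposited without normalization (50559 genes, 25 columns, 6.11% of values not whole). They were rounded. Whether RSEM was run with strand is not given in the sources used here.

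Genes with at least 10 counts over the IP libraries were tested in R 4.3.3 with edgeR 4.0.16 (TMM, quasi-likelihood, two-sided, Benjamini-Hochberg over 21738 genes), each comparison on its own libraries. CPM values are on TMM-scaled library sizes, those of the input on its own total, with a prior count of 2 on the log2 scale. Alternatives were DESeq2 1.42.0, its size factors in edgeR, no filter, filterByExpr, limma 3.58.1 voom with quality weights, replicate number as a block, all 24 libraries, the length slope as a covariate, and each library left out. A further 2 were added after seeing the data, TMM with the input and exon union lengths. The members and lists were chosen with earlier results of these data known, and so was the length slope. Named genes were the 5 repressors, *Arntl*, list members, and the 3 nearest genes by likeness, of which some are not reported here. Gene positions and lengths are from GENCODE M21, and promoters from RefSeq. In data simulated with 200 genes changed by log2 1.5, edgeR recovered 98% at ZT8 and 99.5% at ZT20. It recovered 99.5% and 96% for day-night in controls and *ChAT-BKO*, and 94.5% for the interaction. Of the calls, 1.49% (ZT20) to 5.03% (interaction) were false. Changes as small as those of the repressors left uncalled here were not simulated, so these shares do not bear on them.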

Additional observations from a re-analysis of the deposited data

How the results depend on the processing

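Of 25 results (5 genes in 5 comparisons), 22 kept direction and side of the threshold in every alternative, and 548 of 555 values in all did so. *Cry1*, *Cry2*, and *Per2* were called higher at both times in all 20 alternatives, and *Per1* and *Per3* in none. The *Per2* night difference in *ChAT-BKO* neurons passed with DESeq2 (0.57) and with the length slope (0.52), and stayed uncalled without any 1 library, at 0.46 to 0.65. In controls, leaving out 1 library gave *Per1* values from -0.03 to 0.06 and *Cry1* from 0 to 0.09, with the sign turned in 4 and 1 of these.

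Counts over all genes moved more, and the cause was not tested. At ZT8, 28 genes were higher and 12 lower, against 49 and 21 with DESeq2, 47 and 22 with the replicate block, and 110 and 49 with the length slope. At ZT20, 41 were higher and 9 lower, against 80 higher with DESeq2 and 121 and 44 with the slope. For day and night in controls, 21 higher and 4 lower became 73 and 54 with DESeq2, 62 and 24 with the replicate block, and 198 and 156 with the slope, and lower calls were 7 with filterByExpr and 8 with limma voom. In *ChAT-BKO*, 50 and 12 became 137 and 81 with DESeq2, 285 and 201 with the slope, and 104 and 36 with all 24 libraries, with 21 lower by filterByExpr. For the interaction, the slope gave 1 higher call. With each library left out, calls ran from 12 to 31 higher and 7 to 12 lower at ZT8, lowest without *ChAT-BKO* replicate 3. At ZT20 they ran from 23 to 57 and from 6 to 12, lowest without control replicate 3. For day and night they ran from 9 to 25 and 1 to 5 in controls (lowest without ZT20 replicates 3 and 1), and from 25 to 46 and 7 to 14 in *ChAT-BKO* (lowest without ZT8 replicates 1 and 3).

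Replicate numbers gave no clear pairing of the samples. Correlations of same-numbered libraries ran from -0.28 to 0.36, and at most 2 of 6 correlated best with their own number. Between the 2 times in controls, the mean was 0.12 for the same number and -0.02 for other numbers. Weak correlations cannot show that no batch was shared. The replicate block changed no call of a repressor, with *Per2* at 1.32 and 1.72 and *Cry1* at 2.10 and 2.15 at ZT8 and ZT20.

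With TMM over the input, log2 ratios in controls were -0.17 for *Per1*, -1.80 for *Per2*, -2.24 for *Per3*, -1.79 for *Cry1*, and 0.80 for *Cry2*, and in *ChAT-BKO* -0.19, -0.25, -2.11, 0.34, and 1.15. With exon union lengths, shares in controls were 19.2% for *Per1*, 2.56% for *Per2*, 4.36% for *Cry1*, and 71.3% for *Cry2* (15.6%, 1.74%, 3.26%, and 76.6% by longest transcript), and in *ChAT-BKO* 13.6%, 5.33%, 13.7%, and 65.3% (11.4%, 3.72%, 10.5%, and 72.1%). Near neighbors in the order of levels changed places with the length used, *Per3* with *Per2* in controls at ZT20 and *Per1* with *Cry1* in *ChAT-BKO* at ZT8. Counts behind the lowest genes limit small changes.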
